A study of Rattus norvegicus with 10 samples.

Results

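Homeobox genes encode transcription factors that share a DNA-binding fold, the homeodomain. The genes described here are the members of 15 of their families, namely Lhx, Isl, Nkx, Hmx, Dlx, Emx, the SINE class, Cux, Onecut, Pou, Irx, Meis, Pbx, Zfhx and Otx. They were taken from the deposited table by symbol, as every gene whose name joins one of these prefixes to a digit, leaving out Pou3f2 and the antisense transcript Six6os1. The rule found 77 of the 32623 genes in the table. Of these, 45 had a mean of at least 10 normalized counts over the 10 samples and were tested, 25 others had at least 1 read, and 7 had no read in any sample. All but one of the 77 encode homeodomain proteins. Pou2af1, which the prefix brings in, encodes a coactivator of POU factors and has no homeodomain.

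The samples were 10 supraoptic nuclei of male Sprague-Dawley rats weighing 250 to 300 g, 5 in each of 2 groups; ages were not given. Adeno-associated virus, a vector used to bring genes into neurons, had been injected on both sides. One nucleus received a short hairpin RNA against Opn3, which encodes opsin 3, and the nucleus of the opposite side a non-targeting hairpin. The groups are called shOpn3 and shControl, both groups carried virus, and no uninjected nucleus was included. Nuclei were taken 2 weeks later with a 1-mm punch from 100-μm sections, so that a sample may hold tissue around the nucleus, and RNA was extracted from each nucleus on its own. The promoter of the hairpin, the cell types it reached and the side of injection were not given in the sources used here.

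In the embryo, homeobox genes divide the brain into regions and give neurons their type, and many stay on in the adult neurons of the region they marked. In the forebrain, Nkx2-1, Six3, Six6, Hmx2 and Hmx3 mark parts of the hypothalamus. Dlx genes, Lhx6, Lhx8, Isl1 and Meis2 mark basal forebrain and striatal lineages, and Emx and Cux genes mark the cortex. The magnocellular neurons of the supraoptic nucleus, which release vasopressin (Avp) and oxytocin (Oxt), arise from a hypothalamic domain that expresses Sim1, Arnt2 and the homeobox gene Otp. Pbx and Meis proteins, which belong to the TALE class, bind DNA together with other homeodomain proteins, and many homeodomains, though not those of every class, recognise sites built on the letters TAAT.

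Start-site sequences were looked up because the core letters of these proteins' sites can be searched for in the members that changed. RefSeq windows of build GRCr8, from 250 bases before to 50 bases after an annotated start, were found for 49 of the 77 members and for 5 of the 11 members called below. Dlx5, Lhx9, Meis2 and Onecut1 were among the called members without one. TAAT or its reverse complement ATTA, which overlap in TAATTA, occurred in 4 of these 5 windows and not in that of Pou2f2. Over all 33469 windows of the same length the share was 60.6%, and over the 52 windows of the members it was 36.5%. The median GC content was 51.7% over all windows and 65.2% over those of the members. A match from each of the 4 genes is printed 5′ to 3′ on the gene's strand, with the matching letters in capitals, as an example of what the search found.
Isl1: tttcactgtggacATTActccctcttacag
Meis1: gatctgggaccagTAATtcacactgctgga
Nkx2-1: tccactcaagccaATTAaggcggactcggt
Pou3f4: agcttcgccagccTAATttggaaagcgagc
The stretches lie at chr2:49823440-49823469, minus strand, for Isl1, at chr14:97495162-97495191, minus strand, for Meis1, at chr6:79735019-79735048, minus strand, for Nkx2-1, and at chrX:79974630-79974659, plus strand, for Pou3f4. Their letters begin 14, 95, 168 and 165 bases before the annotated start, which for some genes in the table lies near the start codon. A match of 4 letters is a description of the sequence and does not show a bound site.

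The libraries were similar in depth, and the targeted gene was lower in the knock-down. Recovered reads per sample ran from 33158341 to 39958578. The normalized counts of Opn3 were 719, 694, 841, 1007 and 261 in shControl nuclei 1 to 5, and 289.7, 193, 159, 154 and 145 in shOpn3 nuclei 1 to 5 (log2 fold change of -1.82 with SE 0.32, adjusted p = 0.00226 by limma). All 5 same-numbered pairs went down, and the groups overlapped because shControl replicate 5 lay under shOpn3 replicate 1. Both magnocellular peptides were present and lower in shOpn3, with summed Avp and Oxt of 52511 to 158977 in shControl and 8429 to 30626 in shOpn3. Of the genes that mark the magnocellular lineage outside the families, Sim1, Otp and Arnt2 were all expressed, with values given below. In tissue of many cell types, fewer cells of a type and less RNA per cell cannot be told apart. This holds for every result that follows.

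The comparison of shOpn3 with shControl shows which of these regional factors changed with the knock-down. Of the 45 members tested, 11 passed the test (limma, adjusted p under 0.05 over all 15597 genes tested), 8 of them higher and 3 lower in shOpn3. This fit used the group only and left out the pairing of opposite sides. The higher members included Lhx9, Nkx2-1, Meis2, Dlx5, Meis1 and Pou2f2, and the lower ones were Onecut1, Isl1 and Pou3f4. Normalized counts (reads divided by 1 size factor per sample) rose 1.57-fold for Meis1 and 3.18-fold for Lhx9, and those lower kept 22.1% (Onecut1), 48.7% (Isl1) and 56.5% (Pou3f4) of the control mean. The share called, 24.4%, stood beside 18.8% of all genes tested, with 10.4% of all genes higher and 8.48% lower. Group ranges were apart in 10 of the 45, against 15.3% of all genes tested. In 16 of the 45, all 5 same-numbered pairs had the same direction, against 39.4% of all genes. By an exact permutation test of the 10 samples, two-sided, 10 of the called members reached p = 0.00794, the smallest that 5 against 5 allows, and Meis2 p = 0.0238. These 10 are the members whose group ranges were apart, which fixes that p, so it restates their separation and adds no second test. The permutation also ignored the same-numbered pairs. The median log2 fold change of the members was 0.063, and that of all genes tested was -0.019. The median coefficient of variation over the 5 shControl samples was 23.3% for the members, against 14.9% for all genes tested. These medians were not matched for count level, with which the variation of counts changes. A mean of at least 50 was reached by 31 of the 45 members and by 13518 of the 15597 genes.

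**Figure D1:**
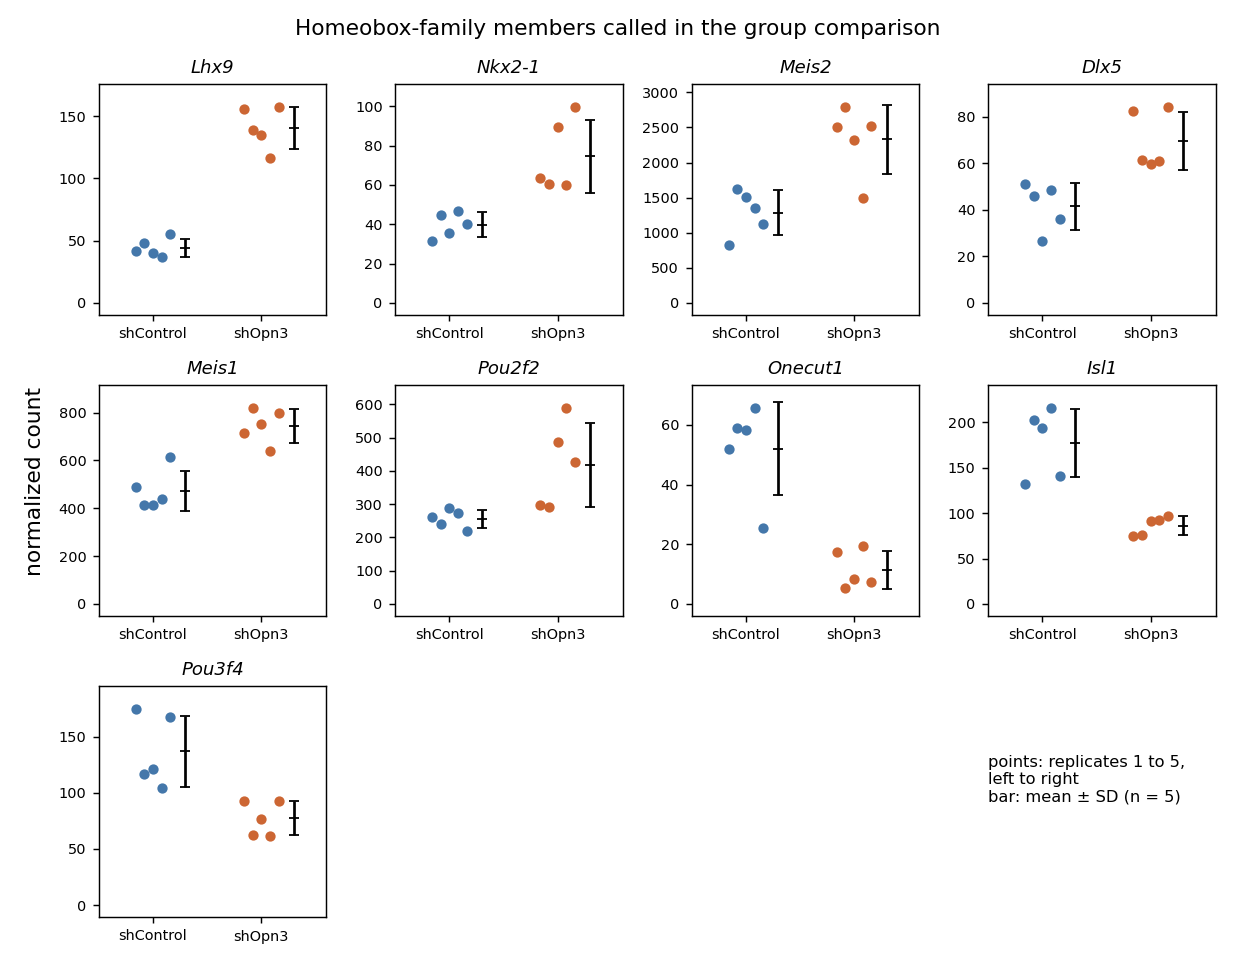
Normalized counts of 9 members called, in each of the 5 shControl (blue) and 5 shOpn3 (orange) samples, with the mean ± SD beside them. The groups are apart for every gene but Meis2, where shOpn3 replicate 4 (1497) lies under shControl replicate 2 (1621).

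Fitted with a term for the replicate number (the block), limma called 13 of the 45 members (28.9%), 8 higher and 5 lower, against 30.3% of all genes. The further ones were Nkx2-2 and Nkx6-2. With edgeR on the recovered reads 12 members were called, 9 higher and 3 lower, against 19.4% of all genes (10.4% higher and 9.04% lower), and the one added was Pou3f1. In the authors' deposited table, 16 of the 54 members with an adjusted p were under 0.05, 10 higher and 6 lower, against 21.3% of all genes with one. These included the 11, and beyond them Lhx2, Nkx2-2, Onecut2, Pou3f1 and Six6.

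**Figure D2:**
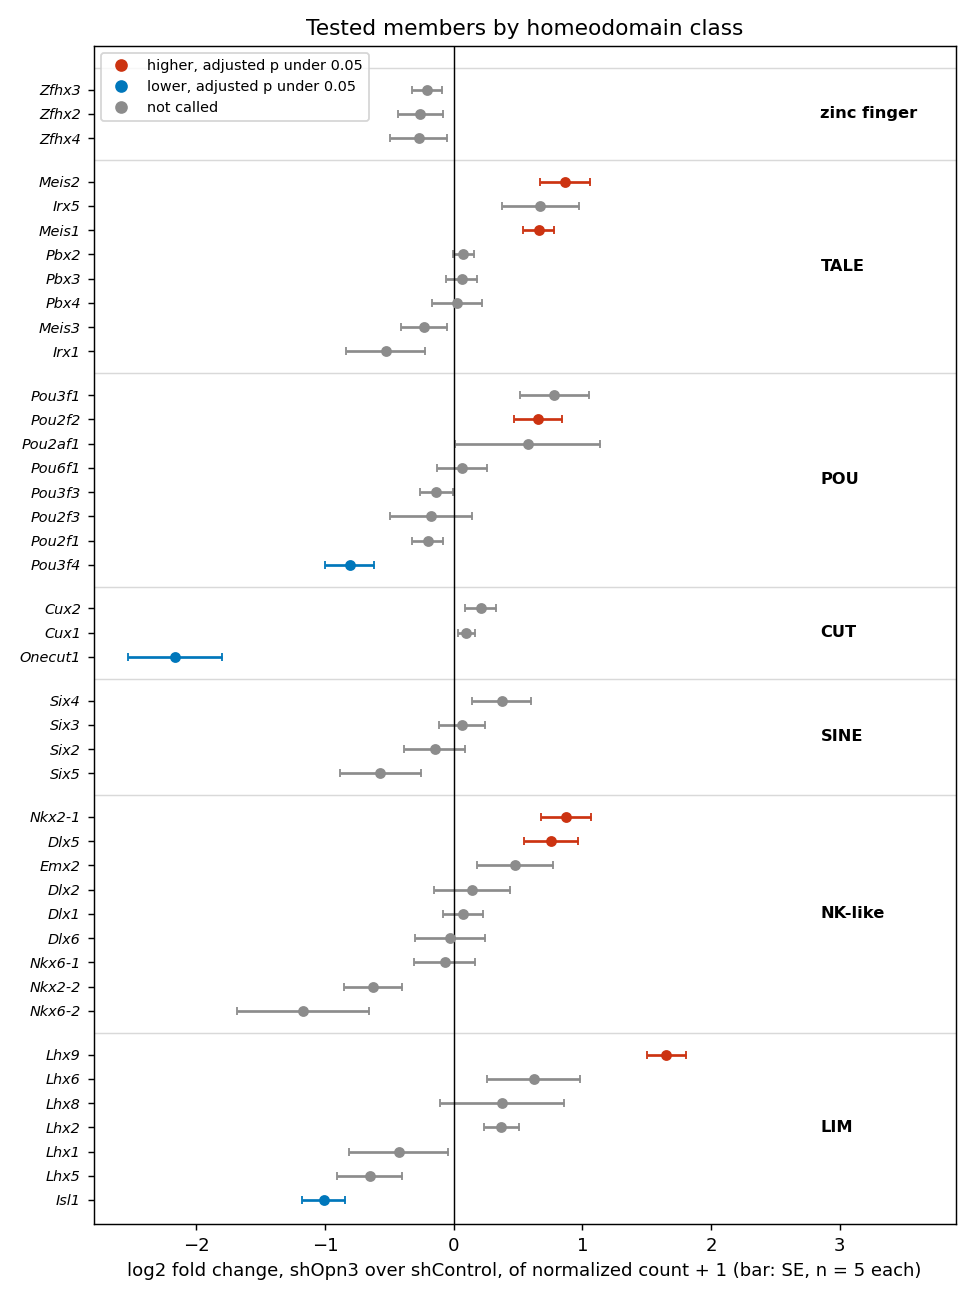
Log2 fold changes of shOpn3 over shControl for 42 of the 45 members tested, on the log2(normalized count + 1) scale, with bars for the standard error, grouped by homeodomain class. Members called higher are red, members called lower are blue and the others grey. Calls fall in the LIM, NK-like, CUT, POU and TALE classes, and the SINE-class and Zfhx members shown are grey. Each class holds few tested genes, and no class was tested against the 18.8% of all genes called.

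LIM-class genes, which pair a homeodomain with LIM zinc fingers, held the call with the smallest adjusted p and moved in both directions. Lhx9 (ENSRNOG00000010357), a factor of the developing diencephalon and pallium, had 41.8, 47.8, 39.8, 36.5 and 54.9 in shControl nuclei 1 to 5, and 155, 139, 135, 116 and 157 in shOpn3 nuclei 1 to 5 (normalized counts, as are all values by nucleus below). Every shOpn3 sample was well above the highest shControl sample. Means were 44.2 ± 7.26 in shControl and 140.4 ± 16.9 in shOpn3 (± SD, n = 5), so that Lhx9 rose (log2 fold change of 1.65 with SE 0.154, adjusted p = 0.000141 by limma). Isl1 (ENSRNOG00000012556), which marks striatal, motor and arcuate neurons, had 133, 202, 194, 215 and 141 in shControl nuclei 1 to 5, and 74.8, 75.4, 91.6, 92.7 and 96.6 in shOpn3 nuclei 1 to 5. Its shControl replicates 1 and 5 were the lowest of their group and still lay above all shOpn3 samples. Isl1 fell from a mean of 177 ± 37.6 to 86.2 ± 10.3 (± SD, n = 5; log2 fold change of -1.01 with SE 0.166, adjusted p = 0.00152 by limma).

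The other 5 of the 7 LIM genes tested were not called, beside a share of 18.8% called among all genes. Lhx2, the nearest relative of Lhx9 and a factor of eye and cortex, had 117, 128, 133, 129 and 137 in shControl nuclei 1 to 5, and 198, 192, 162, 128 and 164 in shOpn3 nuclei 1 to 5 (log2 fold change of 0.37 with SE 0.135, adjusted p = 0.0784 by limma). The controls lay within a narrow range, and only shOpn3 replicate 4 was not above its control. Without that library the adjusted p by limma was 0.0227, and without any other single sample it was 0.0886 to 0.162. The log2 difference of Lhx9 minus Lhx2 within a sample was -1.54 ± 0.21 in shControl and -0.25 ± 0.16 in shOpn3 (± SD, n = 5), without overlap between the groups; like the other differences between relatives given below, this is a description without a test, since the relatives were chosen after the calls were seen. Lhx5, a factor of the hypothalamus and the cortical hem, had 95.8, 123, 145, 122 and 102 in shControl nuclei 1 to 5, and 99.8, 129, 50.5, 55.1 and 60.6 in shOpn3 nuclei 1 to 5 (log2 fold change of -0.65 with SE 0.252, adjusted p = 0.0945 by limma). Its shOpn3 replicates 1 and 2 lay inside the control range and replicates 3, 4 and 5 far below it. Without shOpn3 replicate 2 the adjusted p by limma was 0.0203, and without any other single sample it was 0.0634 to 0.221.

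Lhx1, which marks the suprachiasmatic and mammillary regions, had 8.16 to 50.9 in shControl and 11.3 to 18.1 in shOpn3, with the highest value in shControl replicate 2 (log2 fold change of -0.43 with SE 0.386, adjusted p = 0.485 by limma). Lhx6, a factor of interneurons of the medial ganglionic eminence, had 22.4, 27.5, 9.18, 20.6 and 15.8 in shControl nuclei 1 to 5, and 43.2, 25.5, 15.9, 20.3 and 49.3 in shOpn3 nuclei 1 to 5 (log2 fold change of 0.62 with SE 0.359, adjusted p = 0.262 by limma). Lhx8, which marks cholinergic neurons of the basal forebrain, was uneven within both groups, from 28.5 to 208 in shControl and from 66.6 to 218 in shOpn3 (log2 fold change of 0.38 with SE 0.48, adjusted p = 0.636 by limma). The 3 other LIM members, Isl2, Lhx3 and Lhx4, had at most 5 reads in a sample.

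Of 10 NK-like genes tested, 3 rose and 0 fell in the test without the block, beside 10.4% of all genes higher and 8.48% lower. Nkx2-1 (ENSRNOG00000008644), the factor that patterns the ventral hypothalamus and the medial ganglionic eminence, had 31.6, 44.8, 35.7, 46.8 and 40.1 in shControl nuclei 1 to 5, and 63.3, 60.5, 89.7, 59.9 and 99.7 in shOpn3 nuclei 1 to 5. The lowest shOpn3 sample lay above the highest shControl sample, and replicates 3 and 5 stood highest. The mean rose from 39.8 ± 6.28 to 74.6 ± 18.7 (± SD, n = 5; log2 fold change of 0.87 with SE 0.196, adjusted p = 0.00874 by limma).

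Dlx5 (ENSRNOG00000010905), a factor of GABA neurons of the basal forebrain, had 51.0, 45.8, 26.5, 48.7 and 35.9 in shControl nuclei 1 to 5, and 82.5, 61.6, 59.8, 60.9 and 84.2 in shOpn3 nuclei 1 to 5. The mean rose from 41.6 ± 10.2 to 69.8 ± 12.4 (± SD, n = 5; log2 fold change of 0.75 with SE 0.208, adjusted p = 0.0241 by limma). The call was lost without shOpn3 replicate 1 (adjusted p = 0.0501), without shOpn3 replicate 5 (adjusted p = 0.0654) and with quantile normalization (adjusted p = 0.0625). Its neighbour Dlx6, next to it in the RefSeq gene order, had 53.0 to 95.5 in shControl and 35.7 to 93.1 in shOpn3 (log2 fold change of -0.031 with SE 0.271, adjusted p = 0.952 by limma). The log2 difference of Dlx5 minus Dlx6 was -0.77 ± 0.44 in shControl and 0.011 ± 0.50 in shOpn3 (± SD, n = 5), with overlap. Dlx1, which acts in the same neurons, had 481, 676 and 781 as lowest, median and highest value in shControl and 553, 642 and 815 in shOpn3 (log2 fold change of 0.071 with SE 0.155, adjusted p = 0.794 by limma), and Dlx2 was not called either at 11.2 to 27.5 in shControl and 13.5 to 32.6 in shOpn3. Markers of GABA neurons (Gad1, Gad2 and Slc32a1) gave no call, 0 of 3, with a median log2 fold change of 0.31 and summed levels of 17402 to 28513 in shControl and 19365 to 42797 in shOpn3; their part in the Dlx5 result was not tested.

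The NK-like genes of the oligodendrocyte lineage lay lower in shOpn3 in every pair, beside 39.4% of all genes with the same direction in 5 of 5 pairs. Nkx2-2, which acts as oligodendrocyte precursors mature, had 119, 67.2, 63.3, 81.5 and 115 in shControl nuclei 1 to 5, and 57.6, 41.4, 46.7, 66.6 and 70.9 in shOpn3 nuclei 1 to 5. Nkx6-2, found in myelinating oligodendrocytes, had 224, 48.8, 42.9, 57.1 and 226 in shControl nuclei 1 to 5, and 61.4, 25.5, 22.4, 48.3 and 57.5 in shOpn3 nuclei 1 to 5. In both genes shControl replicates 1 and 5 stood above the other controls, for Nkx6-2 at about the level of each other and far from the rest. Neither passed the test without a block (Nkx2-2: log2 fold change of -0.63 with SE 0.226, adjusted p = 0.0751 by limma; Nkx6-2: log2 fold change of -1.17 with SE 0.51, adjusted p = 0.135 by limma), and both fell once the replicate number was a block (limma adjusted p = 0.0152 and 0.0112). Nkx2-2 also passed with quantile normalization (limma adjusted p = 0.0142) and without shControl replicate 3 (limma adjusted p = 0.0486). Leaving out any other single sample gave 0.0696 to 0.168. All 10 oligodendrocyte markers fell as well. Their summed levels were 989646, 748448, 811668, 786438 and 1274901 in shControl replicates 1 to 5 and 358523, 255911, 324403, 451826 and 482833 in shOpn3, again highest in shControl replicates 1 and 5, with 10 of 10 called and a median log2 fold change of -1.24. Within shOpn3 the sum was highest in replicates 5 and 4, as was Nkx2-2, whereas Nkx6-2 was highest in replicates 1 and 5. Of the precursor markers 0 of 4 tested were called, with sums of 9765 to 12295 in shControl and 8510 to 12371 in shOpn3, a median log2 fold change of -0.12 and Neu4 not tested. What part these cells have in the 2 genes was not tested.

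The remaining NK-like genes showed less. Emx2, a factor of the cortex, had 53.0, 154, 158, 144 and 84.4 in shControl nuclei 1 to 5, and 109, 196, 180.4, 133 and 161 in shOpn3 nuclei 1 to 5 (log2 fold change of 0.48 with SE 0.294, adjusted p = 0.293 by limma), with its lowest values in shControl replicates 1 and 5. Emx1, its cortical relative, stayed under the mean of 10, with 2.04 to 11.6 in shControl and 4.67 to 15.4 in shOpn3. Nkx6-1, a factor of ventral progenitors, had 18.4 to 32.8 in shControl and 16.3 to 29.0 in shOpn3 (log2 fold change of -0.071 with SE 0.238, adjusted p = 0.872 by limma). The log2 difference of Nkx2-1 minus Nkx2-2 was -1.11 ± 0.55 in shControl and 0.39 ± 0.41 in shOpn3 (± SD, n = 5), without overlap. Markers of cortical projection neurons, which Emx genes accompany, were called higher for 4 of 6 genes, with a median log2 fold change of 1.51 and summed levels of 731 to 1060 in shControl and 1520 to 3275 in shOpn3; Neurod2 was at 0 in shControl replicate 2, and the part of these cells in the results was not tested.

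Of the SINE class 5 genes were tested and 0 called, beside 18.8% of all genes, with log2 fold changes from -0.57 to 0.37. Six3, a factor of the anterior forebrain and eye, had 48.9, 46.8, 37.8, 45.9 and 55.9 in shControl nuclei 1 to 5, and 53.7, 38.2, 55.1, 41.5 and 58.6 in shOpn3 nuclei 1 to 5 (log2 fold change of 0.061 with SE 0.178, adjusted p = 0.85 by limma). The groups covered the same range. Six2, Six4 and Six5 overlapped between the groups as well. Six5 had 29.0 to 56.1 in shControl and 17.8 to 53.1 in shOpn3 and Six4 35.9 to 75.3 in shControl and 45.1 to 86.9 in shOpn3, the lower and upper end of the fold changes, and Six2 28.5 to 38.7 in shControl and 19.2 to 48.3 in shOpn3. Six6, a factor of the retina, pituitary and suprachiasmatic region, stayed under the mean of 10 and was not tested, with 9.18, 4.07, 6.12, 8.43 and 5.27 in shControl nuclei 1 to 5, and 0.959, 1.06, 0, 4.83 and 1.03 in shOpn3 nuclei 1 to 5. Its shControl samples all lay above 4 of the 5 shOpn3 samples. Without the filter on low values it was called lower (limma adjusted p = 0.0145), as in the authors' deposited table (adjusted p = 0.0345).

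In the CUT class, Onecut1 fell the furthest of all 45 members. Onecut1 (ENSRNOG00000008095), a factor of liver, pancreas and several neuron types, had 52.0, 59.0, 58.2, 65.5 and 25.3 in shControl nuclei 1 to 5, and 17.3, 5.31, 8.41, 19.3 and 7.19 in shOpn3 nuclei 1 to 5. All shOpn3 samples lay below shControl replicate 5, the lowest control. Means were 52.0 ± 15.7 in shControl and 11.5 ± 6.34 in shOpn3 (± SD, n = 5), which left 22.1% of the control mean (log2 fold change of -2.17 with SE 0.368, adjusted p = 0.00187 by limma). Onecut2, its relative, had 11.2, 7.12, 11.2, 4.68 and 6.33 in shControl nuclei 1 to 5, and 0.959, 1.06, 2.80, 5.80 and 1.03 in shOpn3 nuclei 1 to 5. It was under the mean of 10 and not tested; without that filter limma gave an adjusted p of 0.0201, and the authors' deposited table one of 0.0346. Cux2, a marker of upper cortical layers, had 231 to 330.3 in shControl and 266 to 341 in shOpn3 (log2 fold change of 0.21 with SE 0.121, adjusted p = 0.263 by limma), and Cux1 was not called at 1825 to 2016 in shControl and 1891 to 2208 in shOpn3.

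Members with the Pou prefix gave 1 rise, 1 fall and 6 not called, beside 10.4% of all genes higher and 8.48% lower. All of them but the coactivator Pou2af1 encode proteins that bind through a POU-specific domain and a homeodomain. Pou3f4 (ENSRNOG00000002784), a factor of the developing hypothalamus and inner ear, had 174, 117, 121, 104 and 168 in shControl nuclei 1 to 5, and 93.1, 62.7, 76.6, 61.8 and 92.5 in shOpn3 nuclei 1 to 5. Within each group replicates 1 and 5 were highest, and all 5 pairs were lower in shOpn3. The mean fell from 137 ± 31.9 to 77.3 ± 15.3 (± SD, n = 5; log2 fold change of -0.81 with SE 0.19, adjusted p = 0.011 by limma). Its relative Pou3f3 had 645 to 946 in shControl and 580.4 to 813 in shOpn3 and was not called (log2 fold change of -0.14 with SE 0.129, adjusted p = 0.513 by limma). The log2 difference of Pou3f4 minus Pou3f3 was -2.48 ± 0.27 in shControl and -3.15 ± 0.35 in shOpn3 (± SD, n = 5) and was lower in shOpn3 in 5 of 5 pairs, with overlap between the groups.

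Pou2f2 (ENSRNOG00000055650), known from B cells and also found in neurons, had 260.0, 239, 289.8, 272 and 220.5 in shControl nuclei 1 to 5, and 297, 292, 486, 588 and 427 in shOpn3 nuclei 1 to 5. The shOpn3 samples 1 and 2 lay just above the highest control and samples 3, 4 and 5 clearly above it. It rose (log2 fold change of 0.66 with SE 0.187, adjusted p = 0.0278 by limma). Leaving out any one of shControl replicates 2 and 5 and shOpn3 replicates 3, 4 and 5 ended the call, with adjusted p from 0.0552 to 0.0777. Microglial markers rose for 9 of 10 genes, with a median log2 fold change of 1.22 and summed levels of 10237 to 14542 in shControl and 19386 to 40154 in shOpn3, and 4 of 7 lymphocyte markers tested rose, all of them markers of T cells and related lymphocytes (Cd8a, Cd3e, Cd2 and Cd3g), with a median of 1.04 and sums of 66 to 184 in shControl and 157 to 467 in shOpn3. The B cell markers Ms4a1 and Cd79b were not called, and Cd79a was too low to test. In both marker lists shOpn3 replicate 4 had the highest sum, as it had the highest Pou2f2. Controls did not show this order. Their highest microglial sum (14542) was in replicate 5, which had the lowest Pou2f2 (220.5). Their lowest lymphocyte sum (66) was in replicate 3, which had the highest Pou2f2 of the controls (289.8). What part these cells have in Pou2f2 was not tested. Pou3f1, a factor of Schwann cells and deep cortical neurons, had 32.6, 28.5, 35.7, 45.9 and 33.8 in shControl nuclei 1 to 5, and 38.4, 61.6, 85.0, 41.5 and 97.6 in shOpn3 nuclei 1 to 5 and was not called (log2 fold change of 0.78 with SE 0.267, adjusted p = 0.0607 by limma), although edgeR gave an adjusted p of 0.0456. Without shOpn3 replicate 1 or 4, its lowest knock-down samples, limma gave 0.0239 and 0.0391, and without any other single sample 0.0599 to 0.156. Pou2af1, the coactivator, had 3.06 to 19.4 in shControl and 4.80 to 33.8 in shOpn3 (log2 fold change of 0.58 with SE 0.563, adjusted p = 0.522 by limma). Pou2f1 had 123 to 149 in shControl and 108 to 145 in shOpn3, Pou2f3 7.38 to 17.3 in shControl and 7.73 to 19.6 in shOpn3 and Pou6f1 220.4 to 403 in shControl and 239.6 to 371 in shOpn3, and none of the 3 was called.

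TALE genes, which encode partners of other homeodomain proteins, gave 3 rises among 9 tested, beside 10.4% of all genes higher. Meis2 (ENSRNOG00000004730), a factor of striatal, amygdalar and olfactory bulb neurons, had 826, 1621, 1505, 1350.1 and 1127 in shControl nuclei 1 to 5, and 2513, 2790.1, 2320.4, 1497 and 2525 in shOpn3 nuclei 1 to 5. The shOpn3 replicate 4 lay inside the control range and the other 4 above it, and all 5 pairs were higher in shOpn3. The mean rose from 1286 ± 317 to 2329 ± 494 (± SD, n = 5; log2 fold change of 0.86 with SE 0.198, adjusted p = 0.00951 by limma). Meis1 (ENSRNOG00000004606), a cofactor of Hox and Pbx proteins, had 489, 415, 413, 439 and 613 in shControl nuclei 1 to 5, and 716, 818, 753, 638 and 798 in shOpn3 nuclei 1 to 5. The highest control, replicate 5, lay just under the lowest shOpn3 sample (log2 fold change of 0.66 with SE 0.12, adjusted p = 0.00275 by limma).

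Meis3, the remaining Meis gene, had 622, 412, 385, 408 and 475 in shControl nuclei 1 to 5, and 515, 406, 278, 334 and 439.7 in shOpn3 nuclei 1 to 5 and was not called (log2 fold change of -0.23 with SE 0.176, adjusted p = 0.405 by limma). All 5 pairs pointed down, beside 39.4% of all genes with the same direction in 5 of 5 pairs. With the replicate block Meis3 was still not called (limma adjusted p = 0.0727). The log2 difference of Meis1 minus Meis3 was 0.048 ± 0.26 in shControl and 0.94 ± 0.34 in shOpn3 (± SD, n = 5), and that of Meis2 minus Meis3 was 1.46 ± 0.66 in shControl and 2.56 ± 0.36 in shOpn3 (± SD, n = 5), both without overlap between the groups. Pbx2, Pbx3 and Pbx4 were not called, with log2 fold changes from 0.023 to 0.074. Pbx2 had 1242 to 1475 in shControl and 1244 to 1553 in shOpn3, Pbx3 1756 to 2924 in shControl and 2078 to 2529 in shOpn3 and Pbx4 35.7 to 57.1 in shControl and 31.9 to 52.2 in shOpn3.

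Markers of striatal and amygdalar spiny neurons, in which Meis2 is expressed, went both ways: of 8 tested, 2 rose, among them Drd1 (log2 fold change 0.97), and Rgs9 and Adora2a fell (-0.61 and -0.61), with a median of -0.075 and summed levels of 6555 to 9361 in shControl and 7129 to 8193 in shOpn3. Their part in the Meis2 result was not tested. Of the Irx genes, which pattern thalamus and midbrain, Irx1 had 42.8, 34.6, 23.5, 40.3 and 78.1 in shControl nuclei 1 to 5, and 34.5, 34.0, 21.5, 35.7 and 18.5 in shOpn3 nuclei 1 to 5 (log2 fold change of -0.53 with SE 0.307, adjusted p = 0.265 by limma). Irx5 had 4.08 to 11.6 in shControl and 9.59 to 15.9 in shOpn3 (log2 fold change of 0.67 with SE 0.298, adjusted p = 0.141 by limma). Its mean over all samples, 10.5, was just over the minimum of 10 for testing, while its shControl mean was 8.07.

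The 3 Zfhx genes, which encode large proteins with several homeodomains and zinc fingers, were not called, beside a share of 18.8% called among all genes. Zfhx3, a factor of the suprachiasmatic clock, had 607, 593, 603, 492 and 433 in shControl nuclei 1 to 5, and 493, 403, 459, 510.0 and 483 in shOpn3 nuclei 1 to 5 (log2 fold change of -0.21 with SE 0.116, adjusted p = 0.243 by limma). Zfhx4 had 1239, 2281, 2668, 2222 and 1089 in shControl nuclei 1 to 5, and 1252, 1517, 1555, 1583 and 1511 in shOpn3 nuclei 1 to 5 (log2 fold change of -0.27 with SE 0.223, adjusted p = 0.438 by limma). In shControl its replicates 1 and 5 stood far below the other 3, and below every shOpn3 sample. Limma-voom with sample quality weights, which gave these 2 controls low weights of 0.333 and 0.356, called Zfhx4 lower (log2 fold change -0.56, adjusted p = 0.0115). Zfhx2 had 341 to 544 in shControl and 257 to 448 in shOpn3 and was not called.

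**Figure D3:**
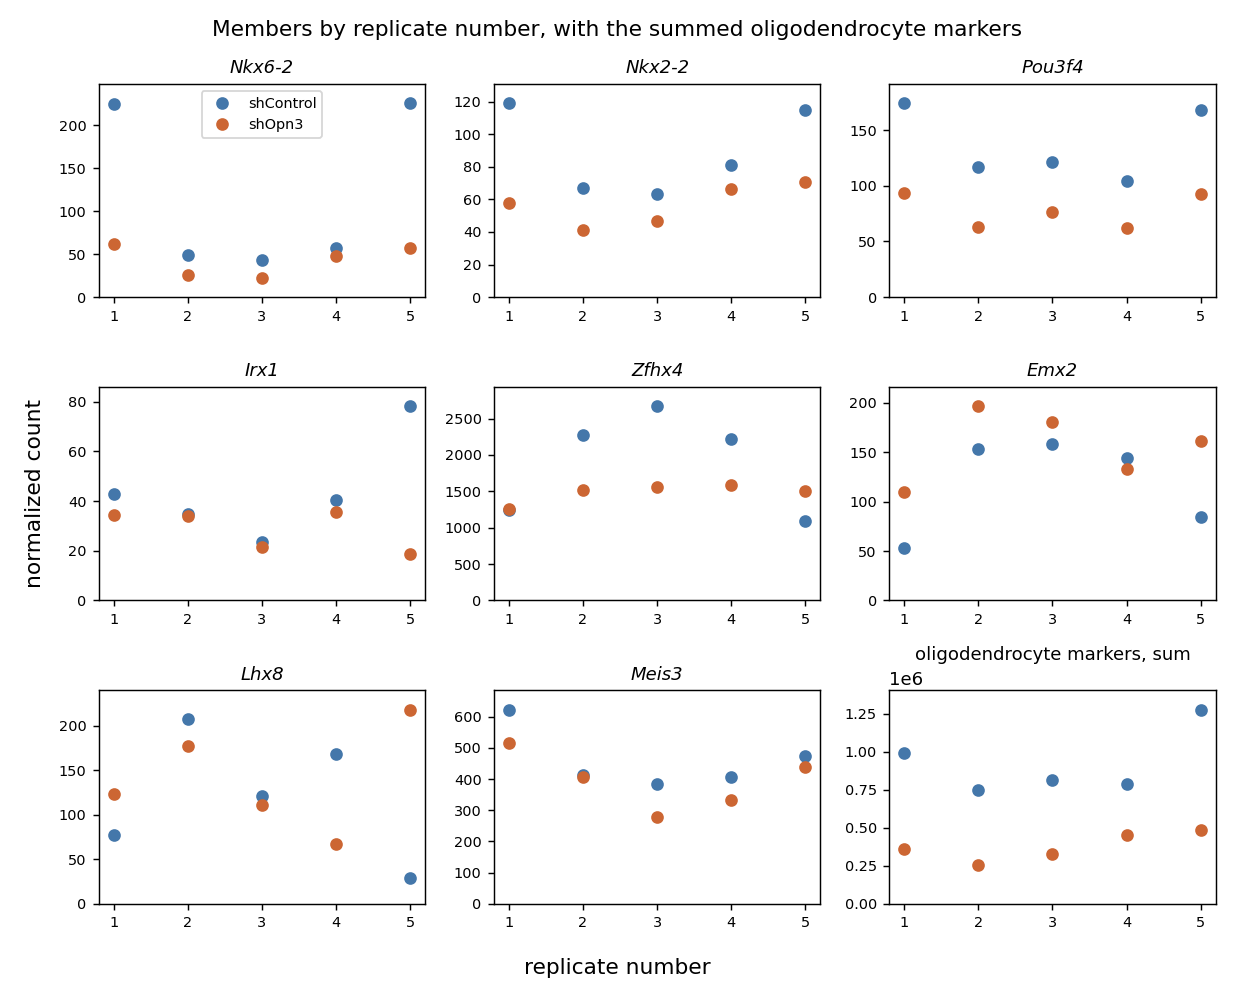
Normalized counts of 8 members and the sum of the 10 oligodendrocyte markers against the replicate number of the labels, shControl in blue and shOpn3 in orange. Among controls, replicates 1 and 5 stand highest for Nkx6-2, Nkx2-2, Pou3f4, Irx1, Meis3 and the marker sum, and lowest for Zfhx4, Emx2 and Lhx8.

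Controls of replicates 1 and 5 thus stood apart for several members, chosen here after their values were seen. Without shControl replicate 1, 11 of 45 members and 2643 of all 15597 genes were called, and without shControl replicate 5, 10 members and 2901 genes were. Leaving out each of the 10 samples in turn gave 9 to 12 members and 1987 to 3056 genes, against 11 and 2940. Over 21 alternative fits the log2 fold change of Lhx9 ran from 1.51 to 1.73 and that of Isl1 from -1.17 to -0.93. That of Onecut1, which a minimum mean of 50 leaves out, ran from -2.60 to -1.82 over the other 20.

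**Figure D4:**
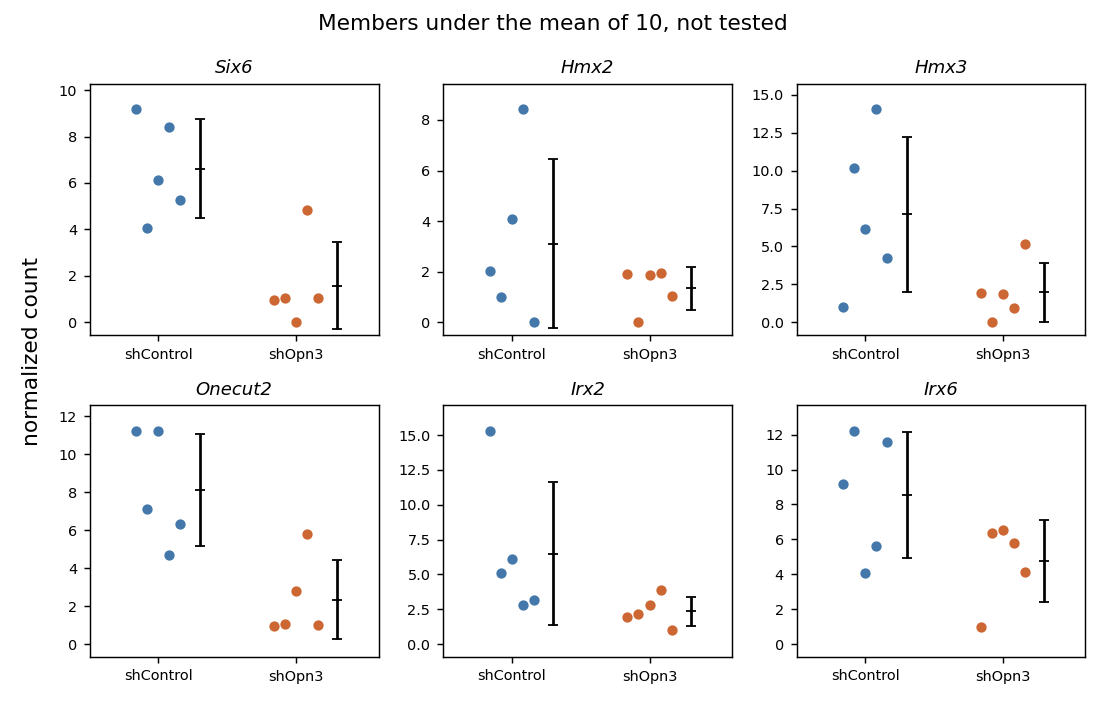
Normalized counts of 6 members with a mean under 10, in each of the 5 shControl (blue) and 5 shOpn3 (orange) samples, with mean ± SD. The group means are lower in shOpn3 for each of the 6, with a few reads per sample and overlap between the groups throughout. The 6 were picked from the 32 members not tested and do not stand for them. Others, such as Emx1, Dlx3 and Otx1, had a higher mean in shOpn3.

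Of the 32 members not tested, 7 had no read at all, namely Hmx1, Nkx1-1, Nkx2-3, Nkx2-5, Nkx3-2, Otx2 and Pou5f1. A count of 0 allows up to 3 reads per library, by counting error alone. A further 8 had 1 to 3 reads at most in any sample, and 17 had more than 3 reads in some sample. Hmx3, which with Hmx2 marks hypothalamic neurons that release growth hormone-releasing hormone, had 1.02, 10.2, 6.12, 14.0 and 4.22 in shControl nuclei 1 to 5, and 1.92, 0, 1.87, 0.966 and 5.14 in shOpn3 nuclei 1 to 5. Hmx2 had 2.04, 1.02, 4.08, 8.43 and 0 in shControl nuclei 1 to 5, and 1.92, 0, 1.87, 1.93 and 1.03 in shOpn3 nuclei 1 to 5. For both the groups overlapped, and neither was called without the filter on low values (limma adjusted p = 0.641 for Hmx2 and 0.142 for Hmx3). Irx2 had 2.81 to 15.3 in shControl and 1.03 to 3.86 in shOpn3 and Irx6 4.08 to 12.2 in shControl and 0.959 to 6.54 in shOpn3. Otx1, a factor of cortex and midbrain, had 3.06 to 6.12 in shControl and 3.19 to 8.63 in shOpn3, and Irx3 had 5.62 to 9.49 in shControl and 4.25 to 11.3 in shOpn3. The others, Dlx3, Dlx4, Irx4, Isl2, Lhx3, Lhx4, Nkx1-2, Nkx2-4, Nkx2-6, Nkx2-8, Nkx6-3, Pou1f1, Pou4f1, Pou4f2, Pou4f3 and Pou5f2, had at most 9 reads in any sample.

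Neighbouring members could be compared in few cases. RefSeq places 14 pairs of members within 2 genes of each other, and both were tested in 4 of them. Dlx5 was called higher and Dlx6 was not, and Dlx1 with Dlx2 and Six2 with Six3 held no call. Nkx2-1 rose beside Nkx2-8, which had too few reads to test.

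Homeobox genes outside the 15 families, from a list of 40, gave values beside which the members can be read. Of 26 tested, 9 were called, 6 higher and 3 lower (34.6%, against 18.8% of all genes), and their median log2 fold change was 0.089. Barhl2, a factor of diencephalic neurons, rose from 42.6 ± 15.5 to 139.8 ± 29.2 normalized counts on average (± SD, n = 5; log2 fold change of 1.75 with SE 0.251, adjusted p = 0.000796 by limma). Tgif1 and Pknox2 rose as well (log2 fold change 1.01 and 0.32). Otp, which the magnocellular lineage needs, had 188, 115, 88.8, 113 and 109.7 in shControl nuclei 1 to 5, and 91.1, 30.8, 18.7, 23.2 and 24.7 in shOpn3 nuclei 1 to 5 and fell (log2 fold change of -1.89 with SE 0.369, adjusted p = 0.00414 by limma). Its shOpn3 replicate 1 was the only one inside the control range. Prox1 and Zeb2 also fell (-0.69 and -0.36).

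Forebrain factors without a homeobox gave a larger share of calls. Of 20 tested from a list of 24, 11 were called, 6 higher and 5 lower (55.0%, against 18.8% of all genes), and the median was 0.033. Those lower were Ebf3 (log2 fold change of -1.86 with SE 0.231, adjusted p = 0.000398 by limma), Fezf2, Nhlh2, Sim1 and Arnt2 (log2 fold change -1.61, -1.42, -1.03 and -0.24), of which Arnt2 was named after its value was seen. Sim1, which specifies magnocellular neurons, had 1714, 2198, 2589, 2213 and 1417 in shControl nuclei 1 to 5, and 1111, 1073, 1305, 819 and 664 in shOpn3 nuclei 1 to 5, and the groups did not overlap. Arnt2, its partner, had means of 11238 ± 346 in shControl and 9522 ± 896 in shOpn3 (± SD, n = 5). Among those higher were Nr4a2, Bcl11b and Neurod6 (log2 fold change 0.67, 1.14 and 1.97), of which Bcl11b and Neurod6 are telencephalic factors.

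Markers of other cells that the punch could hold gave no call for endothelium (0 of 5 tested), meninges (0 of 5), choroid plexus (0 of 3) or ependyma and tanycytes (0 of 1). Ttr, the choroid plexus marker with the most counts, stood at 2396 in shControl replicate 5 and at 737 in shControl replicate 1, against 19.3 to 244 in the other samples, while Otx2, a member that choroid plexus cells express, had no read in any sample. Of 8 astrocyte markers 3 were called, all higher (median log2 fold change 0.14), and of 8 neuronal markers 3 were called, 1 higher and 2 lower (median 0.22). The table did not list Pecam1, Foxj1 or Col1a2 by these symbols. The part of these cells in the members' results was not tested.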

How the data were processed

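RNA sequencing of 10 supraoptic nuclei was deposited as 1 table. Per the submitters' processing notes, FastQC, STAR, featureCounts and DESeq2 were used; versions, genome build, annotation and strand setting are not given in the sources used here, so overlapping and antisense genes are uncertain. The table holds, as the authors deposited it, a signal per gene and sample, namely read counts divided by 1 size factor per sample (0.942 to 1.07). All values (100%) were within 0.001 reads of whole multiples of 1 step per sample, which gave back the reads. Per the file headers it also holds the authors' log2 fold change with standard error, Wald score and p-value; a DESeq2 1.42.0 fit of the recovered reads differed from the deposited log2 fold change by over 1e-04 for 0 of 23160 genes and from the deposited adjusted p for 0 of 17437.

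Values were compared as log2(normalized count + 1) with limma 3.58.1 in R 4.3.3 (lmFit, eBayes with a trend, group only), two-sided, on the 15597 genes with a mean of at least 10, adjusted by Benjamini-Hochberg over all of them, threshold 0.05. This scale understates the change of low genes. edgeR 4.0.16 and DESeq2 on the recovered reads were alternatives. Same-numbered samples were taken as pairs, which the labels do not state. Their deviations from group means correlated in all 5 (r from 0.12 to 0.44, median 0.40). The 20 other pairings ran from -0.45 to 0.36 (median -0.21), so the ranges overlapped. The shControl replicate 4 correlated more with shOpn3 replicates 2 and 3 (0.24 each) than with replicate 4 (0.12). Deviations within a group cancel out, so agreement of same-numbered samples by itself lowers the other values. Members, lists and the rule for named genes (every called member by sample, a set of regional markers whether called or not, the rest by range, and up to 4 called in each direction from other lists) were chosen with earlier results of these data known. Symbols of all 77 members were found in RefSeq GRCr8, used for names and gene order. No gene lengths were used, so levels are not compared between genes. Some genes that the rule names are counted in the totals but not reported here.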

Additional observations from a re-analysis of the deposited data

Results flagged for a closer look

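The 45 tested members and Opn3 were looked at for a single nucleus far from the other 4 of its group, that is, set off by over 0.71 of the group's range. This held in 4 of 92 cases, where chance gives about 4.6 (1 in 20). For Zfhx2 it was shControl replicate 1, at 544 normalized counts and with the next nucleus at 376. Pbx4 stood at 57.1 in shControl replicate 1, with 41.1 in the next. Zfhx4 stood at 1252 in shOpn3 replicate 1, the lowest of its group, with 1511 in the next. Pou2af1 stood at 33.8 in shOpn3 replicate 4, with 12.7 in the next.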

How the results depend on the processing

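Of 229 values that the 11 called members took in up to 21 alternative fits, 221 kept direction and call, while 8 had the same direction without the call, 3 in Dlx5 and 5 in Pou2f2; Dlx5 was 0.58 with quantile normalization (adjusted p = 0.0625). Of the 45 members tested, 11 were called with either other pseudocount, TMM scaling or quantile normalization. The set with quantile normalization held Nkx2-2 (log2 fold change -0.79, limma adjusted p = 0.0142) in place of Dlx5. The count was 12 with edgeR, 13 with the replicate block, 14 with edgeR and the block, and 17 with limma-voom and sample quality weights, for reasons not tested. That last fit also called 5085 of all 15597 genes and 15 of the other homeobox genes, against 2940 and 9. Other fits tested other numbers of genes: with a mean of at least 50, 9 of 31 members and 2704 of 13518 genes were called, with no filter 13 of 70 and 2804 of 23160, and with DESeq2 16 of 54 and 3711 of 17437. The replicate block raised the count of all genes to 4726 with limma and 4777 with edgeR, and changed no call among the named members apart from those of Nkx2-2 and Nkx6-2. Directions turned in 9 cases, all in members not called; the cause was not tested. Dlx1 was -0.14 with limma-voom and weights, -0.025 without shControl replicate 5 and -0.0035 without shOpn3 replicate 2 (up to 0.15 without one of the others). Lhx8 was -0.18 with limma-voom and weights and -0.064 without shControl replicate 5 (up to 0.64 without one of the others). Pou3f3 was 0.0016 with limma-voom and weights. Six3 was -0.096 with quantile normalization, -0.013 without shControl replicate 3 and -0.0034 without shOpn3 replicate 5 (up to 0.15 without one of the others). Low counts limit Six6, Hmx2, Hmx3 and Onecut2, whose values rest on a few reads.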

Other observations

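Hox genes, which mark hindbrain and spinal cord, were near the floor, as 33 of 35 had at most 3 reads in any sample and summed Hox reads ran from 10 to 63 per sample. The exceptions were Hoxc6, with at most 5.09 normalized counts, and Hoxd1, both named after their values were seen. Hoxd1 (ENSRNOG00000001572), the Hox gene with the most reads, was at 48.9, 11.2, 27.6, 21.5 and 63.3 in shControl nuclei 1 to 5, and 7.68, 4.25, 4.67, 12.6 and 6.16 in shOpn3 nuclei 1 to 5, in normalized counts. Like Nkx6-2 and the oligodendrocyte markers it was highest in shControl replicates 1 and 5. It fell (log2 fold change of -1.99 with SE 0.438, adjusted p = 0.00768 by limma), and only shOpn3 replicate 4 reached the lowest control.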
